A study of Mus musculus with 6 samples.

Results

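Voltage-gated and potassium channel genes were followed in the cortex of mice that had a stroke and were or were not given short-chain fatty acids (SCFA). The members were the protein-coding genes whose symbols begin with Kcn (potassium channels), have the form Scn with a number and a or b (sodium channels), or begin with Cacna, Cacnb or Cacng (calcium channels), and that had 60 or more counts over the 6 libraries. Of 134 such genes in the table, 88 had enough counts, out of 24554 genes and unmatched rows in all. They were 65 of 94 potassium, 7 of 14 sodium and 16 of 26 calcium channel genes.

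The libraries came from male C57BL/6J mice (C57BL/6 in the strain label), 15 weeks old and 14 days after stroke, with 3 libraries per group. The SCFA group drank SCFA and the control group matching salts, over 4 weeks that began at 6 to 8 weeks of age. Those 4 weeks, counted from the stated ages, end before the age of 15 weeks at sampling and before the stroke 14 days earlier, and the labels do not say whether treatment went on, so the timing of SCFA relative to the stroke is unclear. Both groups also received metronidazole, neomycin, ampicillin and vancomycin in water with 5% sucrose, so the control is a mouse on antibiotics. The labels name neither the hemisphere nor the distance from the lesion. Nor do they say which mouse gave each library, so p-values measure the spread between these 6 samples.

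Potassium channels bring a neuron back to rest after a spike and set its resting potential, sodium channels start the spike, and calcium channels turn it into transmitter release and signals inside the cell. Each channel has a pore-forming subunit, often joined by auxiliary subunits that change its gating or its place in the membrane. Astrocytes, the support cells of the brain, use inwardly rectifying potassium channels to take up the potassium that active neurons release.

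Libraries held 9275252 to 13862756 counts, and the members took 42537 to 77821 of them. A single row without a gene name took 35.0% to 55.3% of each library. Control 2 had counts in the fewest rows (13600, against 15988 to 16941 in the others) and stood alone on the first principal component, at 109.2 against -25.77 to -17.74. It had 0 counts for 9 members, where SCFA 3 had 1 at 0 and the other libraries none. SCFA 2 stood apart on the second component. Where a named gene's log2 fold change of 0.1 or more in size moved by over 1.5 times without either library, the value without it is given. Levels are given as CPM, counts scaled to the library's size in units of 1000000. Markers of neurons, summed over 7 genes, stood at 1760 to 2000 CPM in controls and 1940 to 2180 CPM with SCFA, although the neuronal marker Rbfox3, with 6 transcript rows, had at most 10 counts in any library.

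The total message for these channels overlapped between the groups. Summed over the 88 members, controls 1 to 3 stood at 4887, 4903 and 4842 CPM, and SCFA 1 to 3 at 4796, 5351 and 4771 CPM. SCFA 2 was the highest library and the groups overlapped. Potassium channels summed to 2840 ± 42.6 CPM in controls and 2878 ± 82.6 with SCFA, sodium channels to 1286 ± 38.4 and 1321 ± 147, and calcium channels to 752 ± 12.3 and 773 ± 103 (SD, n = 3 each). In bulk tissue, fewer cells of a type and less RNA per cell cannot be told apart.

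No channel gene passed the test. Of the 88 members, 87 had enough counts to be tested, Kcns2 being the exception, and 0 were higher and 0 lower with SCFA (edgeR quasi-likelihood test, Benjamini-Hochberg adjustment over all genes, smallest adjusted p 0.864). Over all 11969 genes tested, 0.00835% were called higher and 0.0752% lower, or 0.0835% in either direction. DESeq2 and limma-voom also called 0 members. At an unadjusted p under 0.05, edgeR gave 3 members higher and 2 lower, DESeq2 2 and 2, and limma-voom 4 and 2. Over all 11969 genes, DESeq2 gave 383 higher and 390 lower, and limma-voom 421 and 384. The edgeR share was 5.75% of the tested members against 5.76% of all genes (2.97% higher and 2.79% lower), so the members stood at the background. The 3 SCFA libraries lay above the 3 controls in 7 tested members and below them in 4, against 6.42% and 5.74% of all genes.

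**Figure D1:**
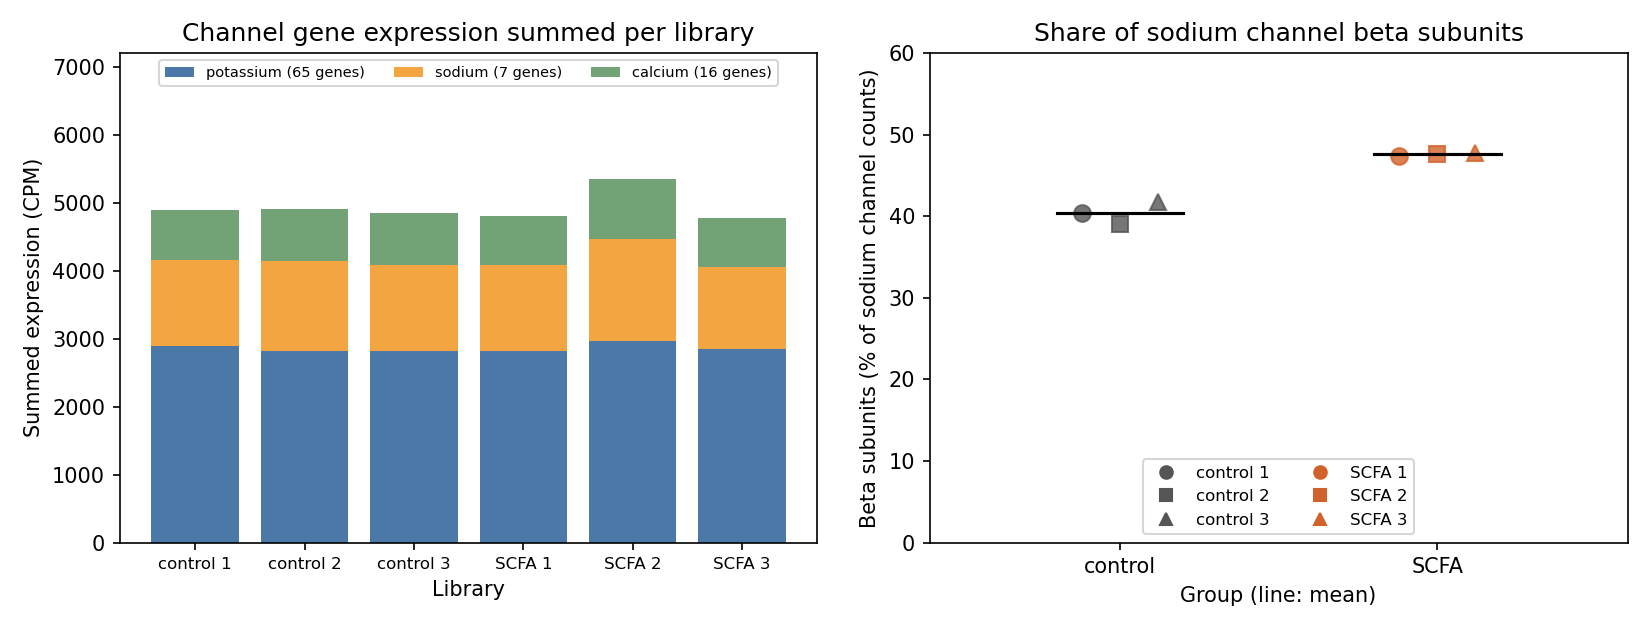
Left, summed expression in CPM of the potassium, sodium and calcium channel members in each library, where SCFA 2 reaches 5351 and the others lie between 4771 and 4903. Right, the percentage of sodium channel counts that fell on beta subunit genes in each library (points) with the group mean (line), at 39.0% to 41.8% in controls and 47.4% to 47.8% with SCFA.

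By group, the median log2 fold change (SCFA against control) was 0.06 over 64 potassium, -0.13 over 7 sodium and 0.19 over 16 calcium channel genes, beside 0.01 over all genes. Of the 87 tested members, 50 lay above 0 and 37 below. Without control 2 and SCFA 2 the 3 medians were 0.00, 0.00 and -0.01. Scaling by total counts, which raised the median of all genes by 0.17, gave 0.24, 0.07 and 0.33. The highest library was SCFA 2 for 35.6% of the tested members and for 20.4% of all genes, and control 2 for 27.6% and 24.9%. Precision followed depth. The 43 members with 1000 or more counts had a median standard error (SE) of 0.188 on the log2 scale, and 40 of them lay within 0.5 of no change, while the 44 tested members with fewer counts had a median SE of 0.676.

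The make-up of the sodium channel counts differed between the groups, which was seen only after the values were known and was not tested. Pore subunits carry the current, and beta subunits are small membrane proteins that tune gating and bind to neighbouring cells. The 3 beta subunit genes among the members took 40.4%, 39.0% and 41.8% of sodium channel counts in the 3 controls, against 47.4%, 47.6% and 47.8% in the 3 SCFA libraries. Every SCFA library lay above every control, by 7.23 percentage points between the group means. This share does not depend on the scaling between libraries. Leaving out 1 library gave 6.51 to 7.94 points. Without Scn4b the share was 36.4% to 40.5% in controls and 42.5% to 45.6% with SCFA, and without Scn2a it was 82.4% to 84.9% and 87.4% to 88.8%, so the groups did not overlap in either case. With 3 libraries against 3, an exact two-sided permutation test cannot give a p below 0.1.

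None of the sodium members behind this share passed the test. Scn2a, the main pore subunit of cortical excitatory neurons, measured 642, 710 and 643 CPM in controls and 591, 681 and 546 CPM with SCFA. The groups overlapped, at -0.13 on the log2 scale (SE 0.132), with -0.22 without SCFA 2, -0.08 without control 2 and -0.06 without SCFA 3. It took 51.7% ± 1.45 of sodium channel counts in controls and 45.9% ± 0.649 with SCFA (SD, n = 3 each). Scn2b measured 194, 242 and 205 CPM in controls and 247, 275 and 244 CPM with SCFA (0.26, SE 0.139, adjusted p = 0.889 in edgeR). Every SCFA library of Scn2b lay above every control, although SCFA 3 exceeded control 2 only slightly. Scn8a, the pore subunit of the spike initiation site, had 289 counts and -0.35 (SE 0.553), with 0.09 without control 2. In these data 4 of 4 tested pore subunit genes (Scn2a, Scn3a, Scn7a, Scn8a) lay below 0 and 3 of 3 beta subunit genes above 0, and total-count scaling, which raises the median of all genes by 0.17, put 2 of the 4 pore genes above 0. The median of the pore genes was then -0.05, beside 0.18 over all genes.

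Scn4b, a beta subunit gene known for high expression in the striatum beneath the cortex, was high in SCFA 2 alone. It measured 46.8, 53.6 and 28.7 CPM in controls and 47.7, 132 and 49.9 CPM with SCFA. Its difference on the log2 scale was 0.84 (SE 0.350), with an adjusted p of 0.864 in edgeR. Without SCFA 2 it was 0.19, and without control 2 and SCFA 2 0.37. Over 8 striatal marker genes, the summed level was 133, 90.2 and 72.8 CPM in controls and 70.9, 396 and 80.7 CPM with SCFA, so SCFA 2 stood out in both. The dopamine receptor marker Drd1 had at most 11 counts in any library. Scn4b per summed striatal marker was 0.351, 0.594 and 0.395 in controls and 0.673, 0.334 and 0.619 with SCFA, and the groups overlapped. The part of striatal tissue in the Scn4b value was not tested further. Testing without a filter on low counts called Scn4b (edgeR, adjusted p = 0.00654), and the other alternatives gave an adjusted p of 0.724 to 1.

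**Figure D2:**
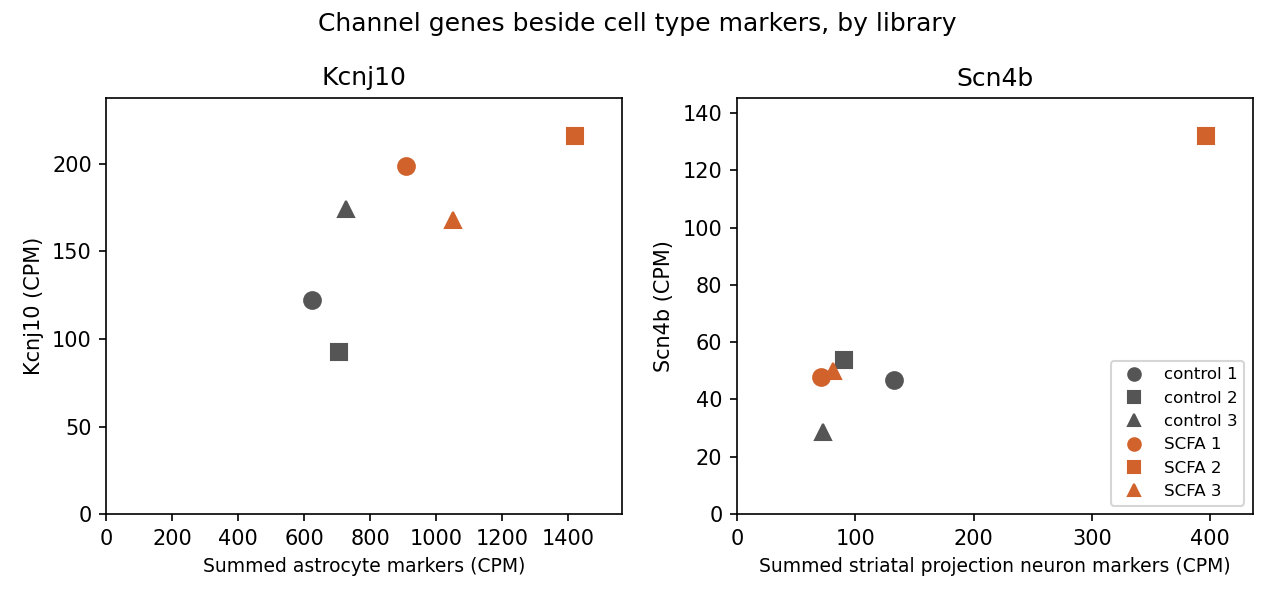
Expression in CPM of Kcnj10 against 6 summed astrocyte markers (left) and of Scn4b against 8 summed striatal projection neuron markers (right), 1 point per library. SCFA 2 is the farthest to the right in both panels, at 1420 and 396 CPM of summed markers.

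The promoters of members with an unadjusted p under 0.05 are shown where the RefSeq table held them, to give the sequence context of the genes described next and of Scn4b. Each window runs from 250 bases before to 50 after the gene's start (GRCm38.p6). Capitals mark GC boxes, GGGCGG on either strand.
Kcnj10, chr1:172340960-172341259, plus strand: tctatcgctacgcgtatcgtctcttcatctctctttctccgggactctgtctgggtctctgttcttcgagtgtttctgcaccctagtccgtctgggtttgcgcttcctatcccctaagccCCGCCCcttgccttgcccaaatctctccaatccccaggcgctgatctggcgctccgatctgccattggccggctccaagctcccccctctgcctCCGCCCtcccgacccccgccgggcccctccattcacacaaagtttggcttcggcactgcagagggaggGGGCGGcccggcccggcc
Kcnk5, chr14:20181733-20182032, minus strand: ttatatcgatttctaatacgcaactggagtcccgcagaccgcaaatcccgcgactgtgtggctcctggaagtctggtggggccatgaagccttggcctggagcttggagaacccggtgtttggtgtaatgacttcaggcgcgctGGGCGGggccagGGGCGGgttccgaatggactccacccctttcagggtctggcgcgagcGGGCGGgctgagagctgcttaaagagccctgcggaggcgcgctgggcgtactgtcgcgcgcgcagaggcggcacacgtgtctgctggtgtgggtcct
Scn4b, chr9:45138374-45138673, plus strand: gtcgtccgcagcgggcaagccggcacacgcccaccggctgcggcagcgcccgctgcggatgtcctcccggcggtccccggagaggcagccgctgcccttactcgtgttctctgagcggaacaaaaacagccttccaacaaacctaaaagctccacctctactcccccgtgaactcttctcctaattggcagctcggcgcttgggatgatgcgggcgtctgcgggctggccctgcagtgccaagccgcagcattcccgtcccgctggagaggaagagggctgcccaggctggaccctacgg
The Kcnj10 and Kcnk5 windows each held 3 GC boxes and the Scn4b window 0, at a GC content of 63.7%, 63.7% and 66.3%. Of the 63 members with a window, 60.3% had a GC box in at least 1 window, against 38.2% of all 27025 genes in the table. Counted per window, since a gene can have several, the shares were 45.9% of 85 member windows and 35.7% of all 32851. TATAAA was found for 9.52% of these members and 15.7% of all genes, TGACGTCA (the cAMP response element) for 0 members and 2.03% of genes, and TTCAGCACC (the left part of the RE1 element) for 1 member and 0.433% of genes, on either strand. The median GC content of the windows was 61.0% for members and 52.7% for all genes, and the motif shares were not tested against it.

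Inward rectifiers pass potassium more easily into the cell than out and hold the resting potential. Of 11 tested genes of this family, 0 passed, 8 lay above 0 and the median log2 fold change was 0.25. Without SCFA 2 the median was -0.07 with 5 of 11 above 0, and without control 2 and SCFA 2 it was 0.00. Kcnj11, the pore of the ATP-sensitive potassium channel that links metabolism to excitability, had the smallest p of all members. It had 25, 6 and 35 counts in controls and 62, 145 and 93 with SCFA, or 2.02, 0.692 and 3.50 CPM against 6.48, 9.97 and 6.92 CPM. Every SCFA library lay above every control, and the difference of 1.90 on the log2 scale (SE 0.572) did not pass (adjusted p = 0.864 in edgeR). Over 18 alternatives it ranged from 1.28 to 2.48 with an adjusted p of 0.190 to 1. It was lowest, at 1.28, without control 2 and SCFA 2. This is a gene of low counts with 2 transcript rows, on chromosome 7 from 46097123 to 46100952 (GRCm38).

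Kcnj10, the main potassium uptake channel of astrocytes (chromosome 1, 172341210 to 172374085), measured 122, 92.8 and 174 CPM in controls and 199, 216 and 168 CPM with SCFA. Control 3 exceeded SCFA 3, so the groups overlapped. The log2 fold change was 0.58 (SE 0.203, adjusted p = 0.864 in edgeR), 0.86 without control 3, 0.39 without control 2, and 0.31 without control 2 and SCFA 2. The 6 astrocyte markers summed to 622 to 727 CPM in controls and 908 to 1420 with SCFA, and 6 of 6 had a log2 fold change above 0. Kcnj10 per summed astrocyte marker was 0.196, 0.131 and 0.239 in controls and 0.219, 0.152 and 0.160 with SCFA, with overlapping groups. The part of the astrocyte markers in the Kcnj10 value was not tested further. Kcnj9, a G-protein-gated inward rectifier whose gene lies 11888 bases from that of Kcnj10, measured 62.4, 69.0 and 56.7 CPM in controls and 48.9, 105 and 69.7 CPM with SCFA (0.25, SE 0.234). SCFA 2 was the highest library and SCFA 1 the lowest, so the groups overlapped. For Kcnj9 no value with a library left out is given, so its stability is not shown. Kcnj9 was named after its values were seen. Kcnj4, a strong inward rectifier of forebrain neurons, had a log2 fold change of 0.47 (SE 0.242) and was highest in SCFA 2, at 67.7 CPM against 26.2 to 48.8 elsewhere. Its value was 0.26 without SCFA 2, 0.26 without control 2 and 0.04 without both. Kcnj13, known from the choroid plexus, had 3.40 to 9.63 CPM in controls and 4.60 to 6.62 with SCFA (-0.43, SE 0.462, and -0.28 without control 2, -0.16 without control 1 and -0.76 without control 3). It overlaps exons of Gigyf2 on the opposite strand, so its reads are uncertain.

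**Figure D3:**
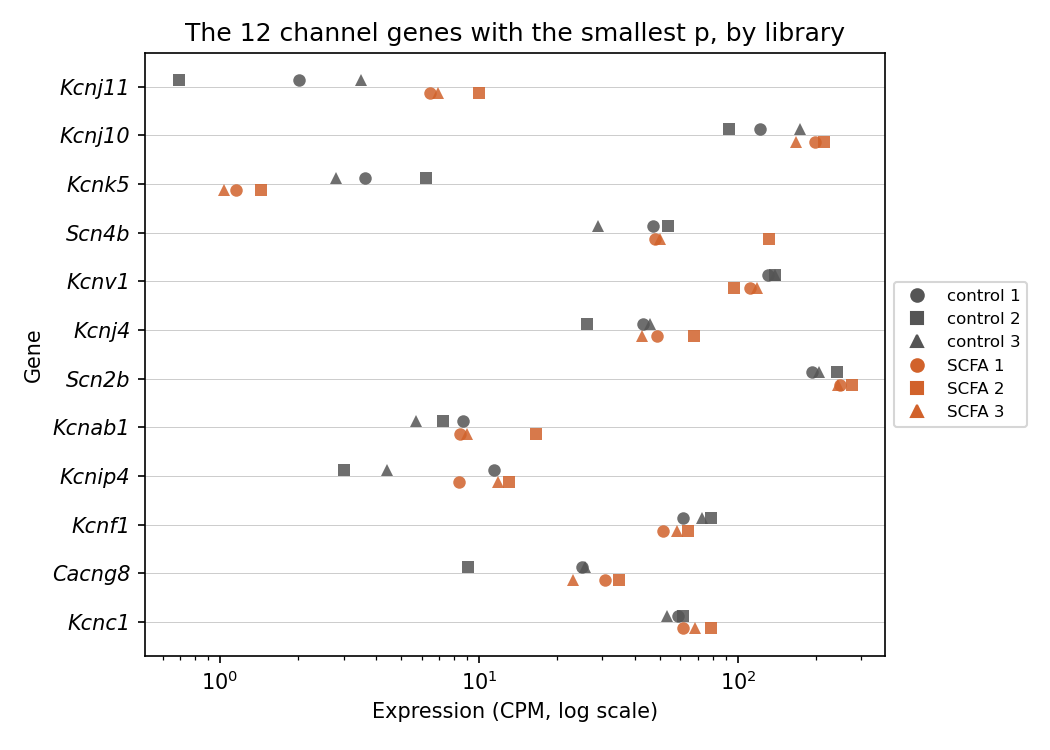
Expression in CPM on a log axis of the 12 tested members with the smallest p, 1 point per library, controls in grey and SCFA in orange. Kcnj11 and Kcnk5 show separated groups at low levels, while Scn4b and Kcnj4 have SCFA 2 to the right of all other libraries.

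The members lower with SCFA at an unadjusted p under 0.05 were Kcnk5 and Kcnv1. Kcnk5, a 2-pore-domain potassium channel that carries leak current and senses pH, measured 3.64, 6.22 and 2.80 CPM in controls and 1.15, 1.44 and 1.04 CPM with SCFA. These rest on 45, 54 and 28 counts against 11, 21 and 14. Every SCFA library lay below every control, and the difference of -1.79 on the log2 scale (SE 0.675) had an adjusted p of 0.864 in edgeR. It was -1.40 without control 2. Kcnv1, a silent subunit that forms no channel alone and modifies Kv2 channels, measured 131, 139 and 139 CPM in controls and 111, 96.5 and 119 CPM with SCFA (-0.33, SE 0.144, adjusted p = 0.864). Its groups did not overlap either, and the value was -0.16 with total-count scaling. Kcnf1, another silent subunit, had -0.29 (SE 0.170) with overlapping groups. Of the silent subunits, 4 of 7 tested lay above 0.

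The delayed rectifiers and A-type channels of cortical neurons include Kcna2, the potassium member with the most counts, and 0 passed. Kcnh7 and Kcnt2, given here for their many counts, belong to other families. Kcna2, a channel of axons near the nodes, measured 381, 416 and 344 CPM in controls and 358, 363 and 356 CPM with SCFA (-0.08, SE 0.129). Kcna1, its partner in axons, had a log2 fold change of 0.15 (SE 0.132). Kcnc1, which lets interneurons fire fast, had 53.4 to 61.2 CPM in controls and 61.6 to 78.8 with SCFA (0.27, SE 0.166, and 0.18 without SCFA 2), without overlap. It was the only 1 of the 3 tested Kv3 genes above 0, and the median of this family was -0.19. Kcnd2, the A-type channel of dendrites, had -0.15 (SE 0.176), with -0.27 without SCFA 2 and 0.00 without SCFA 3, and Kcnh7 -0.03 (SE 0.143). Kcnt2, a sodium-activated potassium channel, measured 252, 203 and 266 CPM in controls and 265, 101 and 218 CPM with SCFA. SCFA 2 was the lowest library there, and the log2 fold change of -0.30 (SE 0.264) was 0.02 without it.

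Auxiliary potassium subunits had a median of 0.45 over 8 genes, 6 of them above 0, and 0 passed. Without SCFA 2 the median was 0.25. Kcnab1, a cytosolic beta subunit of Kv1 channels, had 0.65 (SE 0.374) and 16.6 CPM in SCFA 2 against 5.71 to 9.01 elsewhere, and it was at 0.28 without SCFA 2. Kcnip4, a calcium-binding partner of Kv4 channels, had 0.81 (SE 0.466) and 3.00 to 11.4 CPM in controls against 8.36 to 13.1 with SCFA. It was at 0.48 without control 2, 1.58 without control 1, and 0.34 without control 2 and SCFA 2. For Kcnn2, a small-conductance channel that shapes the current after a spike, 390 counts were found. Its log2 fold change was 0.41 (SE 0.835), where control 2 had 0 counts, and -0.16 without control 2.

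**Figure D4:**
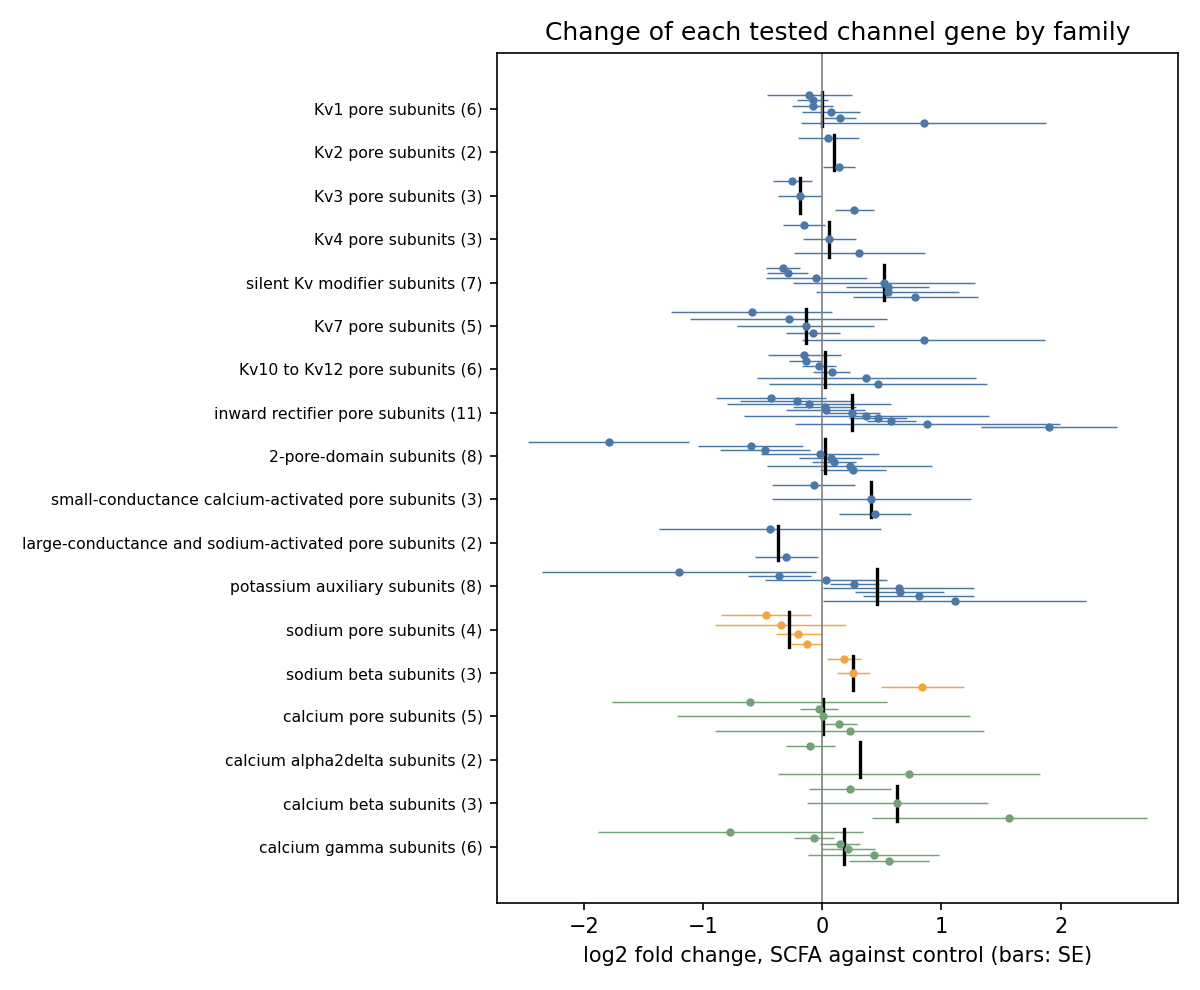
Log2 fold change (SCFA against control) of the 87 tested members with SE bars, by family, with the family median as a black line and the number of genes in brackets. Blue, orange and green are potassium, sodium and calcium channels. Most points lie near 0, and the widest bars belong to genes with few counts.

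Of the calcium channel members 0 of 16 passed, and 0 had an unadjusted p under 0.05. Cacna1e, the R-type pore subunit, measured 277, 297 and 250 CPM in controls and 244, 330 and 231 CPM with SCFA (-0.03, SE 0.158). Cacna1i, a T-type pore subunit that opens near rest, had 0.14 (SE 0.152), with 0.06 without SCFA 2, 0.08 without control 2 and 0.23 without SCFA 1. Cacna2d3, an auxiliary subunit that helps channels reach the membrane, had -0.10 (SE 0.204), with -0.30 without SCFA 2 and 0.09 without control 2. Beta subunits hold the pore in the membrane, and 3 of 3 lay above 0, but on few counts. Cacnb4 had 626 counts and 0.23 (SE 0.343), with 0.11 without control 2 and 0.49 without control 3. Cacnb3 had 68 counts and 1.57 (SE 1.15), with each SCFA library above each control and 0 counts in control 2, without which the value was 1.03. SCFA 1 exceeded control 1 only slightly, at 0.836 against 0.809 CPM, on 8 against 10 counts. The gamma subunits include the TARP proteins, which guide AMPA glutamate receptors to synapses. Among them Cacng2 had 0.15 (SE 0.170), Cacng3 0.22 (SE 0.224), Cacng7 -0.07 (SE 0.170) and Cacng8 0.56 (SE 0.335). Cacng2 was at 0.06 without control 1 and 0.31 without control 3, and Cacng3 at -0.01 without SCFA 2 and 0.40 without control 3. Cacng8 measured 24.9, 9.11 and 25.6 CPM in controls and 30.7, 34.7 and 23.1 CPM with SCFA, so that the groups overlapped, and its log2 fold change was 0.22 without control 2 and 0.09 without control 2 and SCFA 2.

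Of 30 genes that work with these channels (HCN and NALCN channels, anchoring proteins, Kv1, Kv4 and sodium channel partners and the sodium pump), 28 were tested and 0 passed in edgeR, DESeq2 or limma-voom. At an unadjusted p under 0.05, 3 were higher and 1 lower in each of these tools, in edgeR 10.7% and 3.57% of the tested partners against 2.97% and 2.79% of all genes. Among the higher ones was Atp1b2, a beta subunit gene of the sodium-potassium pump, which restores the ion gradients that channels run down. Atp1b2 measured 170, 145 and 224 CPM in controls and 203, 359 and 208 CPM with SCFA (0.51, SE 0.222), with overlapping groups and SCFA 2 highest. At this threshold 0 of the 28 were higher without SCFA 2, without control 1, or without control 2 and SCFA 2. In these fits 164 of 12467, 437 of 12447 and 372 of 12139 of all genes were higher. Atp1b2 was at 0.20 without SCFA 2. The lower one was Nalcn, the sodium leak channel of neurons, with 171, 172 and 144 CPM in controls and 119, 133 and 119 CPM with SCFA (-0.39, SE 0.143, adjusted p = 0.864 in edgeR). Its groups did not overlap, and the value was -0.47 to -0.35 when 1 library was left out and -0.21 with total-count scaling.

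Which channels had enough counts differed with the number of transcript rows. Of the 83 channel genes with 1 RefSeq row in the table, 67 (80.7%) reached 60 counts, against 21 of 51 (41.2%) of those with more. For all protein-coding genes the shares were 61.5% and 34.1%. Genes that cortical neurons are known to use stood near 0. Cacna1a, the P/Q-type pore of cortical synapses, had 0 counts over 4 rows, Scn1a, the sodium channel of fast-spiking interneurons, 6 over 2 rows, Kcnma1, the BK channel, 53 over 22 rows, and Cacna1c, an L-type pore, 19 over 11 rows. Cacna1g, a T-type pore, had 49 counts and Kcnip3, a Kv4 partner, 52, over 4 rows each. Kcnk13, known from microglia, Kcnab2 and Scn3b had 0 counts over 3, 4 and 3 rows. A value near 0 in a gene with several rows was therefore not read as absence, and how reads shared by transcripts were counted was not tested. Just inside the limit of 60 counts were Kcnq1 (62) and Cacna1d (66), and just outside were Cacna2d1 and Kcnt1 (59 each). With 6 and 0 counts, Scn1a and Scn3b are not part of the beta share of sodium channels. The number of rows did not settle the level, since Kcnc1, with 2 rows, had 4441 counts and 3 of the 83 genes with 1 row had 0.

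**Figure D5:**
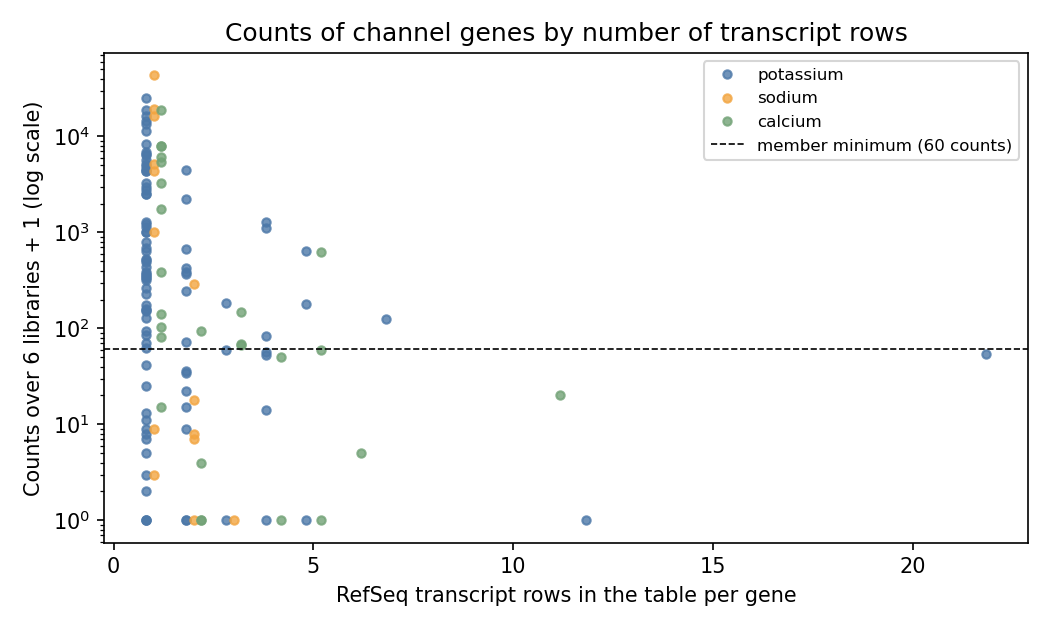
Counts over 6 libraries plus 1, on a log axis, of the 134 channel genes against their number of transcript rows, with the 3 channel groups set side by side at each number and a dashed line at the 60-count minimum. Scn2a, with 1 row, reaches 43423 counts, while Kcnma1, at 22 rows, has 53.

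Among the 67 members with 1 row, levels were compared per kilobase of the matched GENCODE transcript. Scn2a stood at 73.1 CPM per kilobase, Kcnt2 at 61.4, Scn2b at 59.3 and Kcna1 at 58.7. Kcna2 had more counts than Kcna1 but, with a transcript of 11582 bases, a lower level of 31.9. The astrocyte channel gene Kcnj10 stood at 29.9, while Kcnk5 stood at 0.801. These are means over the 6 libraries and assume that reads fall evenly along the transcript.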

How the data were processed

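RNA was sequenced in 6 libraries of snap-frozen cortex, with RNeasy Mini extraction and Ovation Human FFPE library preparation, per the labels' protocols. The authors deposited raw counts per RefSeq transcript, in 1 table of 34755 rows. CASAVA 1.8.2, featureCounts and mm10 are named in the submitters' processing notes. For the aligner, strandedness and reads shared between transcripts, the setting is not given in the sources consulted. Rows were paired with symbols through a RefSeq table of GRCm38.p6 (34419 rows, 99.03%) and summed per symbol.

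The test was that of edgeR 4.0.16 (R 4.3.3): filterByExpr (minimum count 10, minimum total 15), TMM scaling, the quasi-likelihood F test without covariates, two-sided, and Benjamini-Hochberg adjustment with a threshold of 0.05. CPM use the TMM-scaled library sizes, in which 3 counts stand for 0.206 to 0.346 CPM. An SE is the log2 fold change divided by the square root of F. DESeq2 1.42.0 and limma-voom (limma 3.58.1) were alternatives, beside other scalings and filters, removal of structural RNA, unsummed transcript rows and libraries left out. The fits were tested on simulated data.

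The members and lists were chosen with earlier results of these data known. Genes named were the 8 potassium, 3 sodium and 5 calcium members with the smallest p, the 5, 3 and 4 with the most counts, a list of 26 genes written down by role, of which those with too few counts were not tested, and 4 partner genes. Others are named as counts or exceptions. Some genes that the rule names are not reported here. The marker lists for interneurons, microglia, oligodendrocytes, endothelium and choroid plexus had summed CPM of 254 to 325, 223 to 314, 64.4 to 100, 42.8 to 56.3 and 2.54 to 3.20 in controls and of 268 to 330, 370 to 599, 78.7 to 116, 63.5 to 104 and 2.08 to 8.80 with SCFA. Vip, Pecam1 and Folr1 were at 0 counts in all libraries.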

Additional observations from a re-analysis of the deposited data

How the results depend on the processing

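Direction and side of the threshold were recomputed under other scalings, filters and tools, with libraries left out, and on unsummed transcript rows. Over all genes, 1 was higher and 9 lower. The counts were 30 and 25 without a filter, 14 and 17 with DESeq2, 0 and 0 with limma-voom, 10 and 12 with the replicate block, 14 and 11 without control 2 and SCFA 2, and 0 to 8 and 0 to 13 with 1 library left out. Members called were 0 in each of these, except for 1 higher without a filter (Scn4b). At an unadjusted p under 0.05, members higher and lower were 3 and 2. They were 5 and 1 without a filter, where all genes gave 594 and 578 of 18852 tested. In the main fit all genes gave 356 and 334 of 11969. Members were 3 and 0 with total-count scaling (all genes 430 and 56) and 3 and 1 without control 2 and SCFA 2 (all genes 372 and 327). With 1 library left out they were 2 to 5 and 1 to 2 (all genes 164 to 477 and 218 to 382). With the replicate block 3 were higher and 3 lower (all genes 365 and 314). Deviations from the group means correlated at -0.00206, 0.0101 and -0.00525 between libraries of 1 number, so the numbers were not taken as pairs, and the block called 0 members.

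The median of sodium channels (-0.13) was 0.07 with total-count scaling, 0.00 without control 2 and SCFA 2, 0.18 on transcript rows, and -0.16 to 0.08 with 1 library left out. That of potassium channels (0.06) was 0.24 with total-count scaling and 0.00 to 0.14 with 1 library left out, and that of calcium channels (0.19) 0.08 to 0.39. The beta share difference of 7.23 points, with alternatives chosen after the data had been seen, was 6.16 without Scn4b, 4.41 without Scn2a and 6.51 to 7.94 with 1 library left out.

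Total-count scaling raised the median of all genes by 0.17, and with it signs turned for Cacna1e (0.17), Cacna2d3 (0.14), Cacng7 (0.08), Kcna2 (0.10), Kcnd2 (0.04), Kcnh7 (0.13) and Scn2a (0.07). Without control 2 and SCFA 2 they turned for Cacna1i (-0.01), Cacng3 (-0.10), Kcnh7 (0.01) and Kcnn2 (-0.11), and on transcript rows for Scn8a (0.45). With 1 library left out, values ran from -0.20 to 0.06 for Cacna1e, -0.30 to 0.09 for Cacna2d3, -0.01 to 0.40 for Cacng3, -0.17 to 0.06 for Cacng7, -0.27 to 0.00 for Kcnd2, -0.08 to 0.08 for Kcnh7, -0.16 to 0.93 for Kcnn2, -0.58 to 0.02 for Kcnt2 and -0.63 to 0.09 for Scn8a. The cause was not tested.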

Other observations

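Several channel genes lie beside each other, and some examples are given. Of the 88 members, 17 pairs lay within 1000000 bases of each other (GRCm38). Scn2b and Scn4b lie 8554 bases apart on chromosome 9. Scn2b was highest in SCFA 2, at 275 CPM against 194 to 247 elsewhere, and Scn4b at 132 CPM there against 28.7 to 53.6. Scn3a and Scn2a lie 53173 bases apart on chromosome 2, and Scn3a measured 84.3, 84.1 and 68.9 CPM in controls and 55.2, 86.6 and 65.3 CPM with SCFA. Kcna5, Kcna1 and Kcna6 lie in 1 run on chromosome 6, where Kcna5 had 127 counts in all, Kcna1 16370 and Kcna6 4531. These genes were named after their values were seen.

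Exons of 28 of the 88 members overlap exons of another gene in GENCODE vM21. Kcnh7 overlaps Gca by up to 696 bases on the opposite strand, Cacna1d overlaps Chdh by 589, and Kcnk4 overlaps Catsperz by 572 on its own strand. No label gives the strand setting, so the reads of these genes are uncertain.

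Other members whose groups did not overlap included the potassium channel genes Kcns1 (5.81 to 8.30 CPM in controls and 8.36 to 13.7 with SCFA), Kcnip2 (0.00 to 1.21 and 1.27 to 1.86), Kcnh5 (100 to 110 and 93.0 to 98.6) and Kcne4 (1.30 to 1.84 and 0.00 to 1.03). None of these 4 had an unadjusted p under 0.05 in edgeR. Kcnip2 and Kcne4 rest on few counts. Kcnip2 had 15, 0 and 9 counts in controls and 15, 27 and 17 with SCFA. Kcne4 had 16, 16 and 14 counts in controls and 9, 15 and 0 with SCFA.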
